A study of Mus musculus with 3 samples.

Results

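The interleukin-1 receptor family and its MyD88 adaptors were followed through 10 genes, read in every library of regulatory T cells. They were Il1r1, Il1r2, Il1rap, Il1rl1, Il18r1, Il18rap, Sigirr, Myd88, Irak1 and Irak4, taken by symbol from the 55536 mouse genes of the main table, and all 10 were found there. The RNA was polyadenylated RNA of regulatory T cells, a class of CD4 T cells that depends on Foxp3 and holds back other immune cells. The labels describe primary cells of a male mouse, adult and aged 4 months, of strain Foxp3CreERT2 x Rosa26YFP, which carries a tamoxifen-inducible Cre recombinase at Foxp3 and a Cre-dependent yellow fluorescent reporter. The labels trace the cells to a haematopoietic bone marrow cell and name no tissue of collection and no tamoxifen treatment. The 3 libraries are technical replicates 1, 2 and 3 of biological replicate 1, so there was 1 group and no comparison between conditions, and every spread or p-value below measures the difference between these 3 libraries.

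Receptors of this family carry immunoglobulin-like domains outside the cell and, in the signalling members, a TIR domain inside it. A ligand-binding chain and an accessory chain come together around the cytokine, and their TIR domains recruit Myd88, which gathers the kinases Irak4 and Irak1 and leads through Traf6 to NF-kappa-B and MAP kinases. Il1r1 is the signalling receptor of interleukin-1, and Il1r2 is a decoy with a short tail and no TIR domain. Il1rl1 encodes ST2, the receptor of interleukin-33, which marks tissue regulatory T cells, and it shares the accessory chain Il1rap with Il1r1. Il18r1 and Il18rap form the receptor of interleukin-18, and Sigirr is a receptor known as a brake on the family. Soluble ST2 and soluble IL-1 receptor accessory protein are made from shorter transcripts of Il1rl1 and Il1rap, and they bind outside the cell without signalling.

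The sequences below show where the transcripts of 4 receptors part, because the share of each form is given further on. These shares were added after seeing the data. In each gene the first line is the transcript that splices at a donor, and the second is the transcript that reads on through the same donor to an early stop. All are coding bases of the GENCODE M21 transcripts on mm10, 5′ to 3′, with the last 24 bases before the donor in lower case. Capitals are the bases after it, the first 30 of the next exon in the spliced form and everything up to and including the stop codon in the form that reads on. Il1rl1 lies on the plus strand, with the spliced form from chr1:40446652-40446675 to chr1:40450075-40450104 and the other at chr1:40446652-40446704.
Il1rl1-201: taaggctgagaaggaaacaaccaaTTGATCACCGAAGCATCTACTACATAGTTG
Il1rl1-203: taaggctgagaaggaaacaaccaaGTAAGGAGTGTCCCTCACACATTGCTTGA
Il1rap lies on the plus strand, with the spliced form from chr16:26701213-26701236 to chr16:26710481-26710510 and the other at chr16:26701213-26701268.
Il1rap-201: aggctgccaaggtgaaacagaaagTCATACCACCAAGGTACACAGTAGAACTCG
Il1rap-206: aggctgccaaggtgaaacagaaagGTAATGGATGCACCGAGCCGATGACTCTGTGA
Il18r1 lies on the plus strand, with the spliced form from chr1:40491193-40491216 to chr1:40495749-40495778 and the other at chr1:40491193-40491233.
Il18r1-202: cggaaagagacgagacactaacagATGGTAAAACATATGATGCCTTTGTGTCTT
Il18r1-204: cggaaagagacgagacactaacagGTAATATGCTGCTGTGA
Sigirr lies on the minus strand, with the spliced form from chr7:141091803-141091826 to chr7:141091472-141091501 and the other at chr7:141091705-141091826.
Sigirr-203: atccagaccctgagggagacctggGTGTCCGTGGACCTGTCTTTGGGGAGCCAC
Sigirr-206: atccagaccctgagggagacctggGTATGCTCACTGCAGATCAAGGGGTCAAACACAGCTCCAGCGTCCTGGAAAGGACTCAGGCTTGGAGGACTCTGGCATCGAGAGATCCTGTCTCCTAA

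In each of the 4 genes the capitals of the second line open with GT, the letters of a splice donor, and the reading frame then closes within a short run. Il1rl1-203 adds 26 coding bases and a TGA stop and encodes 337 codons in place of 567. Il1rap-206 adds 29 bases and a TGA stop, for 360 codons in place of 570. Il18r1-204 adds 14 bases and a TGA stop, for 372 codons in place of 537. The part of the full coding sequence that lies after the donor, and is lost, is 42.2% in Il1rl1, 38.6% in Il1rap and 31.7% in Il18r1, spread over 3, 3 and 2 coding exons. Sigirr differs, because its donor is the last one of the coding sequence: Sigirr-206 replaces the final 164 coding bases, 13.3% of the total, with 95 bases of the retained intron and a TAA stop, for 387 codons in place of 409.

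A second place where transcripts part is shown for the kinase Irak1 (minus strand, chrX:74022849-74022872 joined to chrX:74022638-74022664), since its leading transcript was not the same in all libraries. The 48 coding bases in lower case are common to both transcripts across the junction of exons 4 and 5 of 14, and the capitals are 3 bases that begin exon 5 of Irak1-206 and are left out of Irak1-204.
Irak1-206: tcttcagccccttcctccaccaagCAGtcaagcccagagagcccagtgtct
Irak1-204: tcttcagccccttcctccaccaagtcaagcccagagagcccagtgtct
The extra bases are CAG and keep the reading frame, so the transcripts encode 711 and 710 codons. A CAG at the head of an exon is the pattern of a tandem acceptor, where splicing can use either of 2 adjacent AG sites. Irak1-206 and Irak1-204 share 3825 bases, and in all 10 bases belong to Irak1-206 alone, with 3 more at the 5′ end and 4 at the 3′ end.

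The libraries held 9299054, 9188612 and 8284381 expected counts in libraries 1, 2 and 3. All 9 regulatory T cell markers examined were detected, and Foxp3 had 27.6, 43.7 and 47.1 TPM, where TPM is a level per transcript length that sums to the same total in every library. Library 1 stood apart: 46.5% and 49.3% of the genes tested differed between it and libraries 2 and 3, against 17.2% between libraries 2 and 3, and short genes lay higher in it (0.36 on the log2 scale in the shortest 10%, -0.22 in the longest 10%). Genes of other blood cells differed too, and 4 globin genes summed to 5466, 18 and 3751 counts. All 10 B cell genes were detected and called different over the 3 libraries, while 54.5% of all genes tested were called. In scaled counts 9 of the 10 were lowest in library 2, as were 1822 of the 7122 genes called. The 10 genes summed to 3789, 2902 and 3691 TPM, led by Ighm at 2189, 1709 and 1778 TPM. The summed level of 11 macrophage and monocyte genes was 40.05, 28.8 and 63.9 TPM. The summed level of 8 plasma cell genes was 2028, 279 and 1454 TPM, most of it Igkc at 1842, 201 and 1203 TPM. In scaled counts the 7 of them called were highest in library 1 for 3, library 2 for 2 and library 3 for 2. Xbp1, at 8.20, 30.7 and 26.0 TPM, was highest in library 2. The summed level of 10 neutrophil genes was 46.0, 0.60 and 4.84 TPM. In bulk RNA, fewer cells of a type and less RNA per cell cannot be told apart.

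Of the 10 genes, 9 were detected, which means 1 TPM or more in every library, while 45.9% of the 22028 protein-coding genes were. The exception was Il1r1. The 10 genes had a median of 4.54 on the log2(TPM + 1) scale, against 0.74 for all protein-coding genes. In order of mean level they were Sigirr, Il1r2, Myd88, Irak4, Il18r1, Irak1, Il18rap, Il1rap, Il1rl1 and Il1r1. Neighbours in this order had ranges that overlapped over the 3 libraries in 3 cases, Irak4 with Il18r1, Il18rap with Il1rap, and Il1rap with Il1rl1. Sigirr and Il1r2, at the top, were separated by little, since the lowest Sigirr level was 160.2 TPM and the highest Il1r2 level 153 TPM. In the second transcript table levels were lower, at 86.0, 141 and 123 TPM for Sigirr and 76.1, 71.0 and 47.0 TPM for Il1r2, with the same order between these genes.

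**Figure D1:**
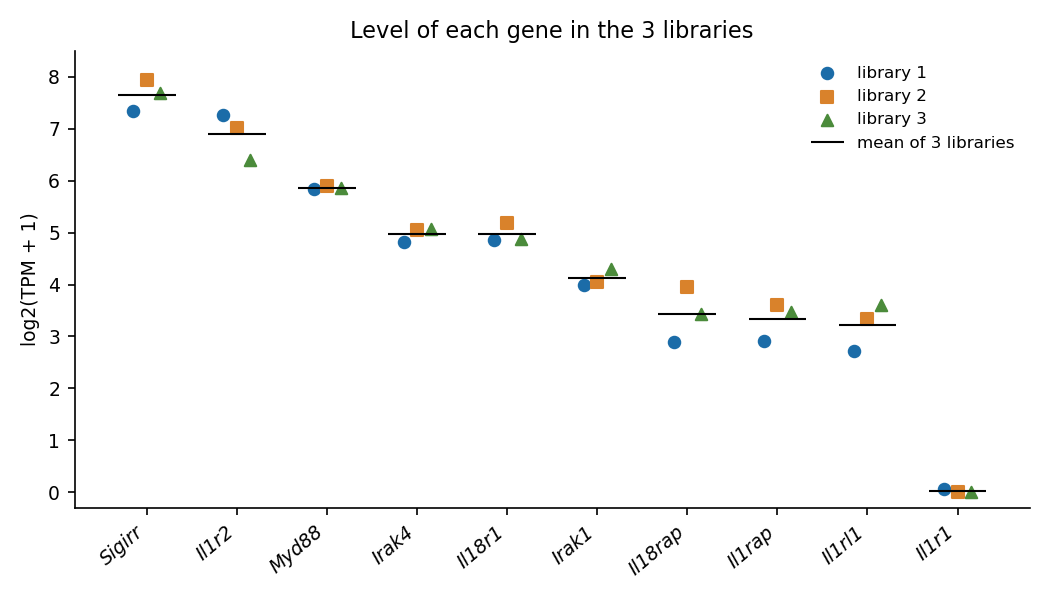
The level of each of the 10 genes on the log2(TPM + 1) scale, with 1 point for each library and a bar at the mean of the 3 libraries. Sigirr and Il1r2 sit highest, the ranges of the 3 receptor chains Il18rap, Il1rap and Il1rl1 overlap, and Il1r1 lies at or next to 0.

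The signalling receptor of interleukin-1 was not detected and the decoy was abundant. Il1r1 (ENSMUSG00000026072.12, mm10 chromosome 1, 40225080 to 40317257, plus strand) had 2, 0 and 0 expected counts, or 0.05, 0 and 0 TPM, and its counts on the older annotation were 0 in every library. The second transcript table gave it 6, 4 and 5 estimated counts, or 0.052, 0.044 and 0.060 TPM. In libraries 2 and 3 a count of 0 allows up to 3 counts, for counting error only. This is a limit of 0.326 and 0.362 CPM (counts scaled to the library total). The estimated counts of the second table belong to larger totals, 12406259 and 11283850 in libraries 2 and 3, so this limit does not apply to them. Il1r2 (ENSMUSG00000026073.13, chromosome 1, 40074079 to 40125231, plus strand) had 153, 128 and 83.0 TPM, a mean of 122 ± 35.7 (SD, n = 3), from 1507, 1057 and 613 expected counts. It lay above 94.9% of protein-coding genes. Library 1 was highest and library 3 lowest, and all 3 differed.

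In scaled counts Il1r2 differed most between libraries of the 9 genes tested, whereas in TPM the ranges of Il18rap and Il1rl1 given below are wider as ratios. Scaled to library size, library 1 had 2.35 times the count of library 3 (exact 95% interval 2.14 to 2.59), 1.53 times that of library 2 (1.42 to 1.66), and library 2 had 1.54 times that of library 3 (1.39 to 1.70). A chi-square test of the 3 counts against TMM-scaled library totals, adjusted over all genes tested by Benjamini-Hochberg, gave an adjusted p of 1.4e-76. Neutrophils are known to express Il1r2, and the sum of the neutrophil list was highest in library 1. Ngp, a granule gene, had 17.6, 0 and 0.15 TPM and Ltf, lactoferrin, 6.11, 0.60 and 0.35 TPM. S100a8, S100a9 and Camp were also highest in library 1. Mpo at 0, 0 and 1.15 TPM, Csf3r at 0.34, 0 and 0.51 and Cxcr2 at 0.04, 0 and 0.24 were highest in library 3. Elane and Retnlg were at 0 in every library, and none of the 10 reached 1 TPM in all 3. In library 2 the 10 neutrophil genes together had 0.60 TPM and Il1r2 had 128 TPM. The part of neutrophils in the difference between libraries was not tested. One transcript, Il1r2-201, which encodes 410 codons, held 97.2%, 93.4% and 94.9% of the gene's TPM. The gene Gm16894 runs antisense within Il1r2 at 4.27, 6.99 and 3.87 TPM, and no source used here says whether strand was used in counting.

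Il1rl1, the interleukin-33 receptor ST2, and its accessory chain Il1rap stood at similar low levels. Il1rl1 (ENSMUSG00000026069.15, chromosome 1, 40429570 to 40465415, plus strand) had 5.63, 9.08 and 11.2 TPM, a mean of 8.62 ± 2.79 (SD, n = 3), from 214, 299 and 326 counts. Il1rap (ENSMUSG00000022514.14, chromosome 16, 26581704 to 26730117, plus strand) had 6.49, 11.3 and 10.1 TPM, a mean of 9.27 ± 2.48 (SD, n = 3), from 190, 302 and 233 counts. Their ranges overlapped almost fully, and the TPM ratio of Il1rl1 to Il1rap was 0.87, 0.81 and 1.11 in the 3 libraries. In the second transcript table Il1rl1 was the higher of the 2 in every library, at 3.35, 5.49 and 6.31 TPM against 2.98, 5.30 and 4.89 TPM. Library 1 was lowest for both.

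For Il1rl1 the scaled count of library 3 was 1.59 times that of library 1 (exact 95% interval 1.33 to 1.90, adjusted p = 3.1e-06 by the same chi-square test), and for Il1rap library 2 had 1.48 times that of library 1 (1.23 to 1.78, adjusted p = 0.00038). Both calls were lost without library 1, at adjusted p = 0.062 and 0.27 by that test. The call of Il1rap was also lost when libraries were scaled within bins of gene length (0.11). With that scaling the ratio of Il1rl1 was smaller, at 1.28 (adjusted p = 0.030 by the chi-square test). ST2 is also known from mast cells and group 2 innate lymphoid cells. Of 10 mast cell and basophil genes, 6 were at 0 in every library and the list summed to 0.48, 2.15 and 2.40 TPM. The 7 genes of group 2 innate lymphoid cells summed to 109.7, 142 and 119 TPM, most of it Gata3, which regulatory T cells express too, and 3 of them were detected. Il9r had 3.99, 7.92 and 8.86 TPM and was called different, lowest in library 1 and highest in library 3, and Il17rb had 1.89, 2.42 and 2.81 TPM. Il5 and Il13 had at most 1 count in any library and Rxrg had 0. The mast cell sum and Il9r were lowest in library 1, as were Il1rl1 and, in scaled counts, 3122 of the 7122 genes called. Of the 2 genes of group 2 innate lymphoid cells called, Il9r was lowest in library 1 and Gata3 in library 3 in scaled counts. The part of these cells in the difference was not tested.

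Most Il1rl1 RNA was assigned to forms that encode the membrane receptor. Il1rl1-201 and Il1rl1-202 encode the same 567 codons and start at different first exons, and together they held 88.6%, 93.1% and 87.2% of the gene's TPM. The form that reads on, Il1rl1-203, held 11.4%, 6.95% and 12.8%, from 12.9, 10.8 and 22.0 expected counts, a mean of 10.4% ± 3.05 (SD, n = 3). In absolute level this was 0.64, 0.63 and 1.43 TPM. The split between Il1rl1-201 and Il1rl1-202 was less steady, at 47.8%, 62.8% and 34.4% for the first and 40.8%, 30.3% and 52.8% for the second. The leading transcript was therefore not the same in all libraries of the main table. In the second transcript table Il1rl1-201 led in every library, at 70.3%, 71.5% and 49.3%, against 17.5%, 13.7% and 38.9% for Il1rl1-202.

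Il1rl1 has 2 start regions that are described as used by different cell types, and both are printed here. They come from RefSeq on GRCm38.p6, 250 bases before to 50 after each start, on the plus strand, at chr1:40429320-40429619 for the distal and chr1:40439379-40439678 for the proximal one. Capitals mark every GATA that has A or T before it and A or G after it, on either strand, the letters read by GATA factors such as Gata3.
Il1rl1 distal: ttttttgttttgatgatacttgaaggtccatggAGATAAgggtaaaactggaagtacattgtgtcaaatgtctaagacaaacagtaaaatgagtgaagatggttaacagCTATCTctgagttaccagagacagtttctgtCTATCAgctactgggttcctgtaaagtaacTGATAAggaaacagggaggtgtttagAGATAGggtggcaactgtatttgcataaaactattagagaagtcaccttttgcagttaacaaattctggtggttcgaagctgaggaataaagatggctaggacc
Il1rl1 proximal: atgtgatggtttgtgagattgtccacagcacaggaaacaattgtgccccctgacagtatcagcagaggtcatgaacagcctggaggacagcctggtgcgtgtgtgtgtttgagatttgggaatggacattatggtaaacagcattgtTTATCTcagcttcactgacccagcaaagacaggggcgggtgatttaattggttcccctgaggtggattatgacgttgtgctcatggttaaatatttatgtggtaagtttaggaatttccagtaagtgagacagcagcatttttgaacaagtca
The distal stretch holds 5 matches and the proximal stretch 1, while 29.8% of all 32851 promoters of this length hold at least 1. A match is a description of the letters and shows no binding. Il1rl1-205, the transcript that starts at the distal site (40429570), had 0 expected counts in every library, and Il1rl1-202, which starts at the proximal site (40439627), had 95.1, 96.9 and 188 expected counts. In the annotation used, Il1rl1-205 is a form that reads on, so a full receptor transcript from the distal site was not among the models. The counts of Il1rl1-205 and Il1rl1-202 therefore compare different forms and cannot show which start was used. Il1rl1-201 and Il1rl1-203 begin outside both stretches, at 40440628 and 40439776, and Il1rl1-201 had 106, 191 and 116 expected counts. Gata3 itself had 104, 129 and 106 TPM.

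In Il1rap, the accessory chain, the form that reads on took a larger share than in Il1rl1. Il1rap-201, the membrane form of 570 codons, held 67.6%, 78.9% and 72.1% of the TPM. Il1rap-206, the early-stop form, held 32.4%, 19.8% and 27.9%, a mean of 26.7% ± 6.39 (SD, n = 3), or 2.10, 2.23 and 2.81 TPM. The level of the short form was 2.38 ± 0.38 TPM (SD, n = 3), and the full form varied more, at 4.38, 8.98 and 7.25 TPM, or 6.87 ± 2.32. The short-form share of Il1rap was above that of Il1rl1 in each library.

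The interleukin-18 receptor had unequal chains. Il18r1, the binding chain (ENSMUSG00000026070.15, chromosome 1, 40465552 to 40500854, plus strand), had 27.8, 35.5 and 28.2 TPM, a mean of 30.5 ± 4.33 (SD, n = 3), from 513, 561 and 416 counts. Il18rap, the accessory chain (ENSMUSG00000026068.11, chromosome 1, 40515362 to 40551705, plus strand), had 6.45, 14.5 and 9.78 TPM, a mean of 10.2 ± 4.02 (SD, n = 3), from 216, 363 and 238 counts. The ranges did not overlap, and Il18r1 was 4.31, 2.46 and 2.88 times Il18rap per length in libraries 1, 2 and 3. Library 2 was highest for both.

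Between libraries, Il18rap differed 1.56-fold from library 2 to library 1 in scaled counts (exact 95% interval 1.32 to 1.86, adjusted p = 9.6e-07 by the chi-square test), and Il18r1 1.20-fold from library 2 to library 3 (1.06 to 1.37, adjusted p = 0.020). The call of Il18rap was lost without library 2 (adjusted p = 0.21) and that of Il18r1 without library 3 (0.98). Natural killer cells also carry this receptor. Their 9 marker genes summed to 15.6, 14.5 and 33.2 TPM, highest in library 3, and 4 of the 9 were detected. Of 5 tested, 4 were called different, beside 54.5% of all genes tested. In scaled counts 2 of those called were highest in library 1 and 2 in library 3. Tyrobp had 4.40, 5.62 and 13.1 TPM, Gzma 2.29, 3.94 and 6.89, Klrb1c 3.14, 2.79 and 3.86, and Fcer1g 4.22, 1.46 and 5.18 TPM. Eomes, called and highest in library 1 in scaled counts, had 0.70, 0.22 and 0.67 TPM. Klra8 was at 0 in every library and Ncr1 had 0.19, 0 and 0.25 TPM. The part of these cells in the differences was not tested.

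Of the 4 receptors with a form that reads on, Il18r1 had the largest share of it. The early-stop transcripts Il18r1-203 and Il18r1-204, both of 372 codons, together held 48.6%, 46.4% and 46.2% of the TPM, a mean of 47.1% ± 1.32 (SD, n = 3), from 178, 186 and 130 expected counts. The transcripts of 537 codons held 42.0%, 37.8% and 43.8%, mostly in Il18r1-202 and Il18r1-206. Il18r1-205, with 267 codons, held 9.44%, 15.7% and 9.99%. Expected counts of single transcripts are model estimates, and Il18r1-203 begins 136 bases after the annotated end of Il1rl1 on the same strand. In the main table Il18rap was mostly full-length, with Il18rap-201, of 614 codons, at 82.7%, 71.0% and 78.2%. The rest was in the retained-intron transcripts Il18rap-202 at 9.39%, 6.89% and 7.36%, Il18rap-203 at 7.87%, 15.9% and 14.5%, and Il18rap-204 at 0, 6.23% and 0. In the second table Il18rap-201 was lower, at 72.6%, 58.4% and 56.1%, and Il18rap-202 was higher, at 19.5%, 21.2% and 24.4%.

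Sigirr, the brake, was the highest of the 10 genes (ENSMUSG00000025494.8, chromosome 7, 141091175 to 141100572, minus strand). It had 160.2, 243 and 205 TPM, a mean of 203 ± 41.5 (SD, n = 3), from 1843, 2258 and 1684 counts, above 97.2% of protein-coding genes. In TPM it was 5.76, 6.85 and 7.26 times Il18r1 and 28.4, 26.8 and 18.4 times Il1rl1. The scales disagreed on the lowest library: in TPM it was library 1, and in scaled counts library 3. By scaled counts library 2 had 1.19 times library 3 (exact 95% interval 1.12 to 1.27, adjusted p = 1.7e-07 by the chi-square test), a call that was lost without library 2 (adjusted p = 0.25).

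Sigirr RNA was divided among several forms. The full form of 409 codons, in Sigirr-201 and Sigirr-203, held 44.4%, 36.8% and 41.3% of the TPM, and Sigirr-206, which retains the last coding intron, held 30.7%, 32.6% and 27.5%. Sigirr-202 held 7.64%, 16.0% and 13.7%, Sigirr-208, a retained-intron transcript, 9.68%, 8.52% and 9.01%, and Sigirr-204 4.65%, 4.09% and 5.21%. At the level of the gene, Sigirr-206 amounted to 49.2, 79.4 and 56.3 TPM, more than the whole of Il18r1 in each library.

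The 4 forms that read on had much the same mean shares when reads were assigned by the second transcript table, made from the same reads by another quantification. There the means were 10.3% ± 2.86 for Il1rl1, 25.0% ± 6.73 for Il1rap, 43.8% ± 4.28 for Il18r1 and 30.8% ± 2.73 for Sigirr (SD, n = 3 libraries). The shift between tables was under the SD of the main table for all but Il18r1, where that SD was 1.32. The full form of Sigirr was less steady, at 40.8% ± 3.85 in the main table and 25.1% ± 3.58 in the second. Sigirr-204, a transcript of 363 bases, moved the other way, from a mean of 4.65% in the main table to 20.2% in the second.

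**Figure D2:**
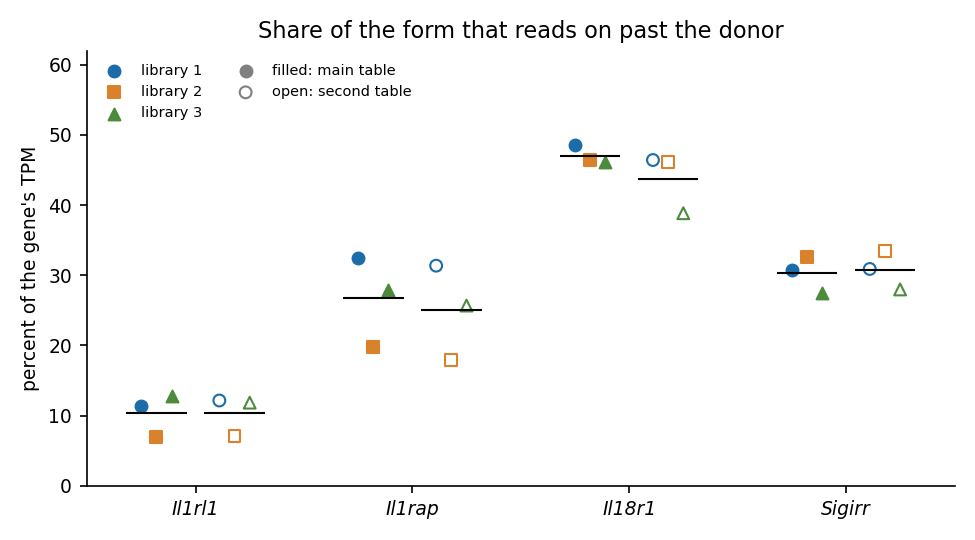
The share of each gene's TPM taken by the form that reads on past the splice donor, in percent, with filled points for the main transcript table and open points for the second, 1 point per library and a bar at each mean. Il1rl1 is lowest in both tables with means of 10.4% and 10.3%, and Il18r1 is highest with 47.1% and 43.8%.

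Myd88, the adaptor that all signalling members recruit, was steady in TPM. Myd88 (ENSMUSG00000032508.8, chromosome 9, 119335934 to 119341411, minus strand) had 56.4, 58.9 and 56.9 TPM, a mean of 57.4 ± 1.29 (SD, n = 3), from 817, 724 and 637 counts. In scaled counts library 1 was 1.23 times library 3 (exact 95% interval 1.11 to 1.36, adjusted p = 0.00014 by the chi-square test), and the call was lost without library 1 (adjusted p = 0.91). Myd88-201, with 296 codons, held 98.3%, 99.0% and 96.3% of the TPM. Acaa1a, a gene of the opposite strand at 27.9, 43.5 and 31.7 TPM, overlaps 1736 bases of Myd88.

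In TMM-scaled counts the kinases that follow Myd88 had the smallest ratios between libraries, while in TPM Myd88 varied less than they did. Irak4 (ENSMUSG00000059883.16, chromosome 15, 94543643 to 94581815, plus strand) had 27.3, 31.9 and 32.5 TPM, a mean of 30.6 ± 2.82 (SD, n = 3), from 567, 563 and 537 counts. Irak1 (ENSMUSG00000031392.18, chromosome X, 74013914 to 74023918, minus strand) had 14.9, 15.6 and 18.8 TPM, a mean of 16.4 ± 2.06 (SD, n = 3), from 383, 379 and 372 counts. Their highest and lowest scaled counts differed 1.08-fold (exact 95% interval 0.96 to 1.22) and 1.10-fold (0.95 to 1.27), each with an adjusted p of 0.44 by the chi-square test. With libraries scaled within bins of gene length, both were called, at adjusted p = 0.019 and 0.014. Irak4 stood at 1.83, 2.05 and 1.73 times Irak1 per length, and Myd88 at 2.06, 1.84 and 1.75 times Irak4. Twf1, on the opposite strand, overlaps 3865 bases of Irak4 at 36.2, 49.6 and 41.5 TPM.

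While the total of Irak1 was not called different in TMM-scaled counts, its transcript shares changed between libraries. Irak1-206, which has the extra CAG printed above, held 84.5%, 8.34% and 84.5% of the gene's TPM, and Irak1-204, without it, held 0, 87.5% and 0. In expected counts this was 373, 32.7 and 361 for Irak1-206 and 0, 342 and 0 for Irak1-204. Most Irak1 RNA was thus assigned to the transcript with the extra bases in libraries 1 and 3 and to the one without them in library 2. The second transcript table gave the same split, with Irak1-206 at 86.4%, 2.80% and 84.0% and Irak1-204 at 0.041%, 85.7% and 0.21%. The pattern rests on 10 bases of difference between the transcripts, and the number of reads that covered those bases is not in the tables used here. Among other Irak1 transcripts, the retained-intron transcript Irak1-215 reached 11.2% in library 1, with 2.04% and 0 in the others. Irak4-201 held 93.5%, 91.1% and 99.0% of the TPM of Irak4, and Irak4-203 held 5.54%, 6.28% and 0.

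**Figure D3:**
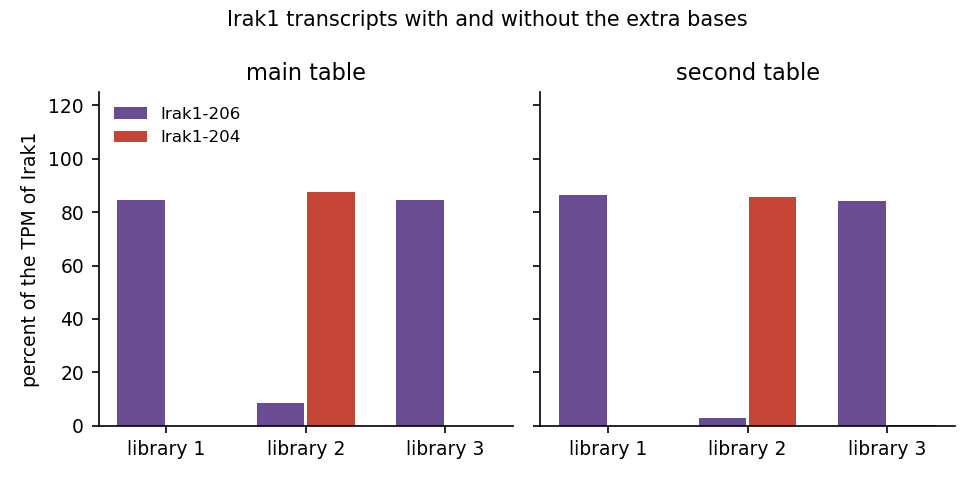
Percent of the Irak1 TPM taken by Irak1-206, which has the extra CAG, and by Irak1-204, which lacks it, in the 3 libraries of the main and the second transcript table (bars start at 0). Irak1-206 leads in libraries 1 and 3, with 84.5% in each in the main table, and Irak1-204 leads in library 2 with 87.5%.

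Over the 9 genes that were detected, the same transcript led in all 3 libraries in 6, and this held for 76.2% of all detected genes with 2 or more transcripts. The exceptions were Il1rl1, Sigirr and Irak1. In the second table the exceptions were Il18r1 and Irak1, so Irak1 was the gene whose leading transcript changed in both.

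By the chi-square test, 7 of the 9 genes with 30 or more counts differed between libraries, against a background of 54.5% of all 13071 genes tested and of 73.3% of the 5166 genes within the same range of counts. The share of members called was therefore near the background. The median ratio of the highest to the lowest library was 1.23 for the 9 genes and 1.37 for all genes tested. Library 1 was highest for 2 of the 7, library 2 for 4 and library 3 for 1, and over the 7122 genes called these libraries were highest for 3168, 1775 and 2179. The highest or the lowest library changed with the scaling or the table for Il18r1, Il18rap, Il1rap, Sigirr, Myd88, Irak1 and Irak4, and for neither Il1r2 nor Il1rl1. Without library 1, 4 were called, namely Il1r2, Il18r1, Il18rap and Sigirr. Il1r2 was called under every setting tried, with ratios from 1.54 to 2.42.

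**Figure D4:**
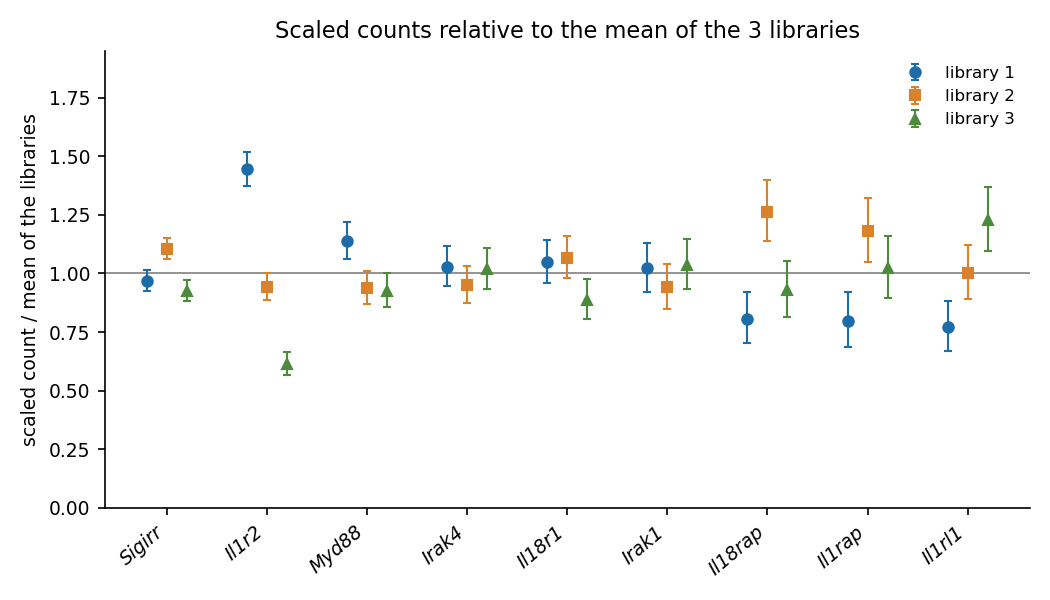
Scaled count of each gene in each library, divided by the mean of the 3 libraries, with exact 95% Poisson intervals that cover counting error. Il1r2 spreads most, with library 1 highest and library 3 lowest, library 1 is lowest for Il18rap, Il1rap and Il1rl1 (library 3 for Il18rap with scaling by gene length), and the intervals of Irak4 and Irak1 overlap.

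The same reads were also counted on an older annotation, GENCODE M4, and the counts were compared per gene after scaling. Of the 9 genes, Il1rl1 was more than 2-fold lower on the older annotation in every library, at 0.36, 0.34 and 0.34 times the main table, from 92, 120 and 137 counts. None was more than 2-fold higher. Over all 10091 genes compared, 12.6% were lower and 1.17% higher by this rule. Il1r2 lay at 1.56, 1.56 and 1.59 times the main table, with 2831, 1965 and 1198 counts, and Sigirr at 1.33, 1.29 and 1.30 times. Irak1 (0.58, 0.64 and 0.60 times), Il18rap (0.64, 0.56 and 0.62 times) and Il1rap (0.72, 0.66 and 0.78 times) lay below 1, Myd88 at 0.78, 0.85 and 0.82 times, and Il18r1 and Irak4 were near 1. Within a gene the 3 libraries gave much the same ratio. For Il1r2, library 1 was highest and library 3 lowest in both tables.

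**Figure D5:**
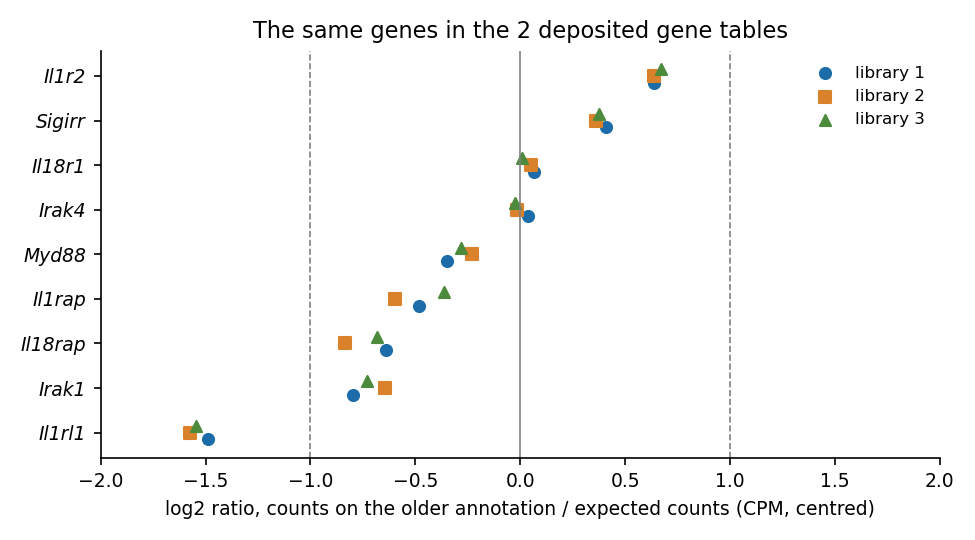
Log2 ratio of the counts on the older annotation to the expected counts of the main table, as CPM centred on the median gene, with 1 point per library. Dashed lines mark 2-fold, Il1rl1 lies beyond the lower line in all 3 libraries, and Il1r2 lies highest.

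Of the 10 genes, 5 lie in 1 cluster on chromosome 1, all on the plus strand, with Il1rl2 among them. In order along the chromosome they are Il1r2, Il1r1, Il1rl2, Il1rl1, Il18r1 and Il18rap, which together span 477627 bases. Their mean levels were 122, 0.017, 1.41, 8.62, 30.5 and 10.2 TPM. The genes at the highest and the lowest level, Il1r2 and Il1r1, are next to each other with 99848 bases between them. Il1rl1 and Il18r1 are 136 bases apart, with 8.62 and 30.5 TPM.

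The ligands of these receptors were scarce in the same cells. Of 11 ligand and antagonist genes found, 3 were detected, and these 3 had enough counts to test. Il18 had 5.00, 4.83 and 4.29 TPM, the interleukin-18 binding protein Il18bp had 3.65, 3.55 and 6.08 TPM, and the interleukin-1 receptor antagonist Il1rn had 2.85, 3.79 and 2.67 TPM. They were not called different between libraries by the chi-square test, at adjusted p = 0.19, 0.084 and 0.43. Il1a had 3, 0 and 6 counts and Il1b 0, 0 and 1. Il33, the ligand of ST2, had 0 counts in every library, as did Il1f6, Il1f8, Il1f5 and Il1f10, and Il1f9, an interleukin-36 gene, had 0.11 TPM in library 3 alone. Of the remaining receptors, Il1rl2, the interleukin-36 receptor, had 0.84, 1.56 and 1.84 TPM, Il1rapl1 had 0.03, 0 and 0 TPM and Il1rapl2 was at 0.

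Further adaptors and kinases of the route were present in part. Of 13 genes listed, 8 were detected. The pellino ligase Peli1 had 44.4, 57.0 and 53.3 TPM, the kinase Irak2 25.5, 31.7 and 33.2 TPM and the inhibitor Tollip 14.6, 27.6 and 27.4 TPM. Irak3, an inhibitory member of the kinase family, was low at 2.25, 3.09 and 1.73 TPM. The ligase Traf6 had 6.22, 12.2 and 13.8 TPM, Traf3 6.85, 12.3 and 8.80, Tirap 4.84, 5.69 and 6.97, and Ticam1 6.15, 9.14 and 9.42 TPM. Of 9 tested, 4 were called different: Tollip, Traf6, Traf3 and Ticam2, with library 1 lowest in the first 3, while 54.5% of all genes tested were called and 3122 of these 7122 were lowest in library 1. Ticam2 had 1.22, 1.97 and 0.77 TPM, a 2.35-fold range in scaled counts. Irak1bp1, Sarm1, Peli2 and Peli3 had means under 1 TPM, from 0.23 to 0.55.

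The steps after Traf6 were well represented. Of 19 genes of the TAK1, IKK and MAP kinase steps, 18 were detected, led by the inhibitor Nfkbia at 470 ± 77.8 TPM (SD, n = 3), Ube2v1 at 395 ± 31.8 and Ube2n at 250 ± 8.08 TPM, both subunits of the ubiquitin-conjugating enzyme that works with Traf6. Tifa was lowest at 0.79 ± 0.66 TPM. Of 18 tested, 13 were called different between libraries, beside 54.5% of all genes tested and 73.3% of those in the members' range of counts. All 10 genes of brakes and targets were detected, with Tnip1 at 121 ± 14.0, Usp18 at 113 ± 8.77 and Usp4 at 112 ± 20.9 TPM, and Socs1 lowest at 1.81 ± 0.46 TPM, with a 2.10-fold range between libraries.

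Of 14 Toll-like receptor genes and cofactors, most of which signal through Myd88, 6 were detected, led by Tlr1 at 61.1 ± 13.4, Ly96 at 12.7 ± 4.05 and Tlr7 at 8.08 ± 1.93 TPM (SD, n = 3), and Tlr9 was lowest at 0.057 ± 0.051 TPM. Ly96 and Tlr2 were called with ranges of 2.27-fold and 2.15-fold, and both were highest in library 1. Of 11 genes of cytokine processing, 9 were detected. The adaptor Pycard stood at 223 ± 27.7, Casp8 at 152 ± 9.16 and the gasdermin Gsdmd at 111 ± 25.6 TPM, while the inflammasome sensor Nlrp3 was at 0.067 ± 0.091 TPM. Of 15 genes of ST2-positive and tissue regulatory T cells, 13 were detected, led by the checkpoint receptors Tigit at 343 ± 73.6 and Pdcd1 at 227 ± 36.4 TPM and by the transcription factor Batf at 180.3 ± 21.1 TPM. Pparg was lowest, at 1.07 ± 0.47 TPM, and Il10 was called with a 2.14-fold range, highest in library 2.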

How the data were processed

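The members and gene lists were chosen with earlier results of these data known. The authors deposited expected counts and TPM per gene and per transcript on GENCODE M21 of mm10. Their transcript table also gives each transcript's percent of the TPM of its gene, per the file headers. A second deposited transcript table gives TPM and estimated counts from the same reads. A further table deposited by the authors holds whole-number counts per gene on GENCODE M4, per the deposited readme. Not given in the sources used here are the aligner, quantifier and counter, and the use of strand.

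Expected counts were rounded. Genes with 30 or more counts over the 3 libraries were tested by chi-square for homogeneity against TMM-scaled totals (edgeR 4.0.16, R 4.3.3), with Benjamini-Hochberg adjustment over all genes tested and a threshold of 0.05. Ratios have exact 95% intervals, which cover counting error only, since PCR copies are not told apart from molecules. Detection means 1 TPM or more in every library. Gene tables were compared as CPM over shared genes, centred on the median ratio, among genes at 1 CPM or more in both, and called beyond 2-fold where all libraries had the same direction. Transcript shares were not tested, because their counts are model estimates. Named were all 10 members, their transcripts at 5% or more in any library, the ligands, other receptors and adaptors, and of every other list the 3 highest genes, the lowest and any called with a ratio of 2 or more, plus marker genes and overlapping genes. Calculations ran in Python 3.11.15, with pandas 2.3.3, scipy 1.17.1 and numpy 2.4.6. The test was checked on simulated counts drawn with counting error only, so this check does not cover further spread between libraries. Alternatives were other scalings (DESeq2 1.42.0 size factors, plain totals, 20 bins of gene length), other count minimums, other tables and each library left out in turn.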

Additional observations from a re-analysis of the deposited data

How the results depend on the processing

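No paired analysis was possible because the 3 libraries form 1 group. Detection of 9 genes held at 0.5 and 5 TPM, in both other TPM columns and without any library. The count of 7 genes called different was 8 with scaling within bins of gene length and 7 under the other 6 settings. It ran from 4 to 6 with a library left out, and was 4 without library 1. Of the 9 genes tested, Il1rap lost its call in 2 of 8 settings, Il1rl1, Il18r1, Il18rap, Sigirr and Myd88 in 1 each, and Irak1 and Irak4 gained one in 1 each. No called gene turned the direction of its main highest-to-lowest pair. The library at the top or the bottom still changed in 1 or more settings that kept all libraries, for Il18r1, Il18rap, Il1rap, Sigirr, Myd88, Irak1 and Irak4; the lowest library of Sigirr was 1 with plain totals and length bins, and Irak4, not called with TMM or with plain totals, was then lowest in library 1 with the latter. The count of genes with the same leading transcript ran from 5 to 8. Genes different between gene tables numbered 4 at 1.5-fold (Il1r2 higher, Il1rl1, Il18rap and Irak1 lower) and 0 with the second transcript table in place of the older annotation, where 2.29% of all genes were higher and 0.214% lower. The median level of the members lay 3.80 above that of all protein-coding genes on the log2 scale. It was 4.94 above with a pseudocount of 0.1, 3.05 above by the second transcript table and 0.17 above the detected protein-coding genes, and from 3.74 to 3.81 with a library left out. The shares of the forms that read on were added after seeing the data. In each gene the donor with the highest such share was used. The share of Il18r1 that reads on moved to 43.8% by the second table. The cause of these shifts was not tested. Il1r1, at 2 expected counts or fewer, is limited by depth. Technical replicates of 1 sample give no biological spread, and no source used here says whether they came from 1 pool of RNA.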
